A study of Mus musculus with 6 samples.

Results

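The mitochondrial ribosomal protein genes were 76 of the 18193 genes measured on 6 Affymetrix arrays of mouse pancreatic duct cells. They were chosen by name: a gene belonged if a probe set (the group of short probes that reads 1 transcript) carried exactly 1 gene symbol and that symbol began with Mrpl (large subunit, 47 genes) or Mrps (small subunit, 29 genes) followed by a digit. The 76 genes had 156 such probe sets, and each gene was read by the brightest of its probe sets, by mean over the 6 arrays. Mrpl30 and Mrpl53 were read only by probe sets that also name another gene and were not counted. All values are log2 signals, so that a difference of 1 is a 2-fold change.

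The cells were of the mPAC L20 line, grown in medium with 10% fetal bovine serum, and every culture carried an adenovirus that drives Neurog3, the factor that starts endocrine differentiation, from a CMV promoter. In shControl (3 arrays) an earlier adenovirus carried a scrambled hairpin, and in shAtoh8 (3 arrays) its hairpin targeted Atoh8, a transcription factor of the basic helix-loop-helix family. Cells (250000 per well) first met the hairpin virus, for 4 h, and next the Neurog3 virus, for 1.5 h, both at an moi (multiplicity of infection) of 40, and then grew for a further 44 to 46 h. No array came from uninfected cells or from cells without Neurog3, so both groups share infection with a hairpin virus and the Neurog3 virus, and the line is a single cultured model of the duct. The 3 replicates were independent experiments, and arrays of the same replicate number in the 2 groups were treated as pairs in the fit named below as the replicate block.

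Mitochondria keep their own ribosome. It makes the few membrane proteins that mitochondrial DNA encodes, which are core subunits of the respiratory chain and of ATP synthase. Its RNAs come from mitochondrial DNA, whereas all of its proteins are encoded in the nucleus, made in the cytosol and imported. The large subunit forms peptide bonds and the small subunit decodes the message. Some of the proteins descend from the bacterial ribosome and others exist only in mitochondria. In most tissues the nuclear genes for these proteins are expressed broadly.

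The start regions of 4 members are shown here because the members are the extremes of the comparison below: Mrpl43 and Mrpl1 had the highest fold changes of the large subunit, Mrpl3 had its lowest and Mrps2 had the highest of the small subunit. Mrps35 had the lowest of the small subunit. The sequences are the 250 bases before the annotated start of transcription, 5′ to 3′ along the gene, from RefSeq on GRCm38.p6. Capitals mark matches, on either strand, to 5 short motifs: GCGCATG (the core of the NRF1 site), CCGGAAG (the ETS site that GABPA binds), AAGATGG (YY1), and the E-boxes CACGTG and CAGCTG, which basic helix-loop-helix factors bind. The windows lie at chr19:45006443-45006692 (minus strand) for Mrpl43, chr5:96209865-96210114 (plus) for Mrpl1, chr9:105053018-105053267 (plus) for Mrpl3 and chr2:28467816-28468065 (plus) for Mrps2.
Mrpl43: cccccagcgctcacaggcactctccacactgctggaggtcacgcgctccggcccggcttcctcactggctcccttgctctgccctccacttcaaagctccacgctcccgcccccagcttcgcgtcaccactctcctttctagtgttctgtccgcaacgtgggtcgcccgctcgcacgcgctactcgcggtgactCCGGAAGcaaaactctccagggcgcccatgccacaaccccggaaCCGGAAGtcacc
Mrpl1: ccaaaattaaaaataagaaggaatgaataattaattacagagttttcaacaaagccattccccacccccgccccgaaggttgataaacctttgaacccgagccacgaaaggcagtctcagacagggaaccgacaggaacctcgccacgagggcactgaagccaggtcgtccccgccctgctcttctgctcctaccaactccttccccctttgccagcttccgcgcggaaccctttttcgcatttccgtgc
Mrpl3: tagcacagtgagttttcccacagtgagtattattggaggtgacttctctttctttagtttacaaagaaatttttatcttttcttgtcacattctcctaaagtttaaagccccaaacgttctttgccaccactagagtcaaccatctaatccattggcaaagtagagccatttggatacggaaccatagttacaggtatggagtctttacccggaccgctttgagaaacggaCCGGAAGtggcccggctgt
Mrps2: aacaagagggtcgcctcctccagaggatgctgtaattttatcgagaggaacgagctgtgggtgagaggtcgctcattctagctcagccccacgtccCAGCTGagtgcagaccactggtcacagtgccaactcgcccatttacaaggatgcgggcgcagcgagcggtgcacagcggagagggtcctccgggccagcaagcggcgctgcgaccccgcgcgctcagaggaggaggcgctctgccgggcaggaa
The ETS motif stood at bases 195 and 239 of the Mrpl43 window and at base 232 of the Mrpl3 window, counted from 1 at the 5′ end. The Mrps2 window held the E-box CAGCTG at base 97, and the Mrpl1 window held none of the 5 motifs.

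The series gave this frame for the members. The array medians lay between 5.49 and 5.56. Atoh8 itself read 8.75, 8.29 and 7.52 in shControl and 7.83, 7.90 and 7.37 in shAtoh8. All 3 pairs were lower, with differences of -0.92, -0.39 and -0.15 in replicates 1, 2 and 3. The fitted difference of -0.49 ± 0.30 (SE) did not pass limma (adjusted p = 0.573, and 0.157 under the replicate block). Every direction given here is therefore that of the library label. The brighter probe set of Neurog3 read 7.45, 6.64 and 5.79 against 6.78, 6.06 and 5.33 (-0.57 ± 0.48, adjusted p = 0.706), lower in all 3 pairs and past the threshold under the block (0.0330). The other Neurog3 set read 0.18 ± 0.17 (0.751, and 0.400 under the block). The part of this difference in the values of the members was not tested. Of the 18193 genes, 210 passed limma (the linear model fit over all probe sets, with Benjamini-Hochberg adjustment) at an adjusted p under 0.05, and 849 passed with the replicate block. The 210 fell to between 0 and 117 when any 1 array was left out, and the 849 to 0 without replicate pair 1 or 3. The 9 measured genes of 11 duct and epithelial markers had mean signals of 9.97 to 10.2 over the arrays, with Krt8, Krt18 and Krt19 at 13.3 to 13.9 and Onecut1 and Cldn4 at only 4.82 to 5.43. The means were 4.53 to 5.76 for the lists of acinar, endocrine, mesenchymal, blood and endothelial markers. Single genes of these lists read higher, such as acinar Cela1 (8.16 to 8.86), Cd68 of blood (6.12 to 7.33), mesenchymal Pdgfra (6.69 to 7.07) and endocrine Sst (6.32 to 6.68). Cela1 lay higher in shAtoh8 in all 3 pairs (0.37 ± 0.14 SE, limma adjusted p = 0.291). Of these marker genes, Epcam alone passed, lower with the block (-0.73, adjusted p = 0.0463). The table holds no call of presence or absence. In a bulk sample fewer cells of a type and less RNA per cell cannot be told apart.

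Whether the hairpin against Atoh8 changed the genes of the mitochondrial ribosome is the comparison of shAtoh8 with shControl. No member passed limma over all probe sets: 0 of 47 large subunit and 0 of 29 small subunit genes, where 1.15% of all genes passed. At an unadjusted p under 0.05 the members gave 10 of 76 (13.2%), against 17.5% of all genes. Of these 7 were higher (9.21%, against 8.72% of all genes) and 3 lower (3.95%, against 8.82%). With the replicate block 2 large subunit genes rose, Mrpl43 and Mrpl1 (2 of 47, 4.26%), where 4.67% of all genes passed (1.92% higher and 2.75% lower), and no small subunit gene passed (0 of 29; 4 had an unadjusted p under 0.05 without the block).

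**Figure D1:**
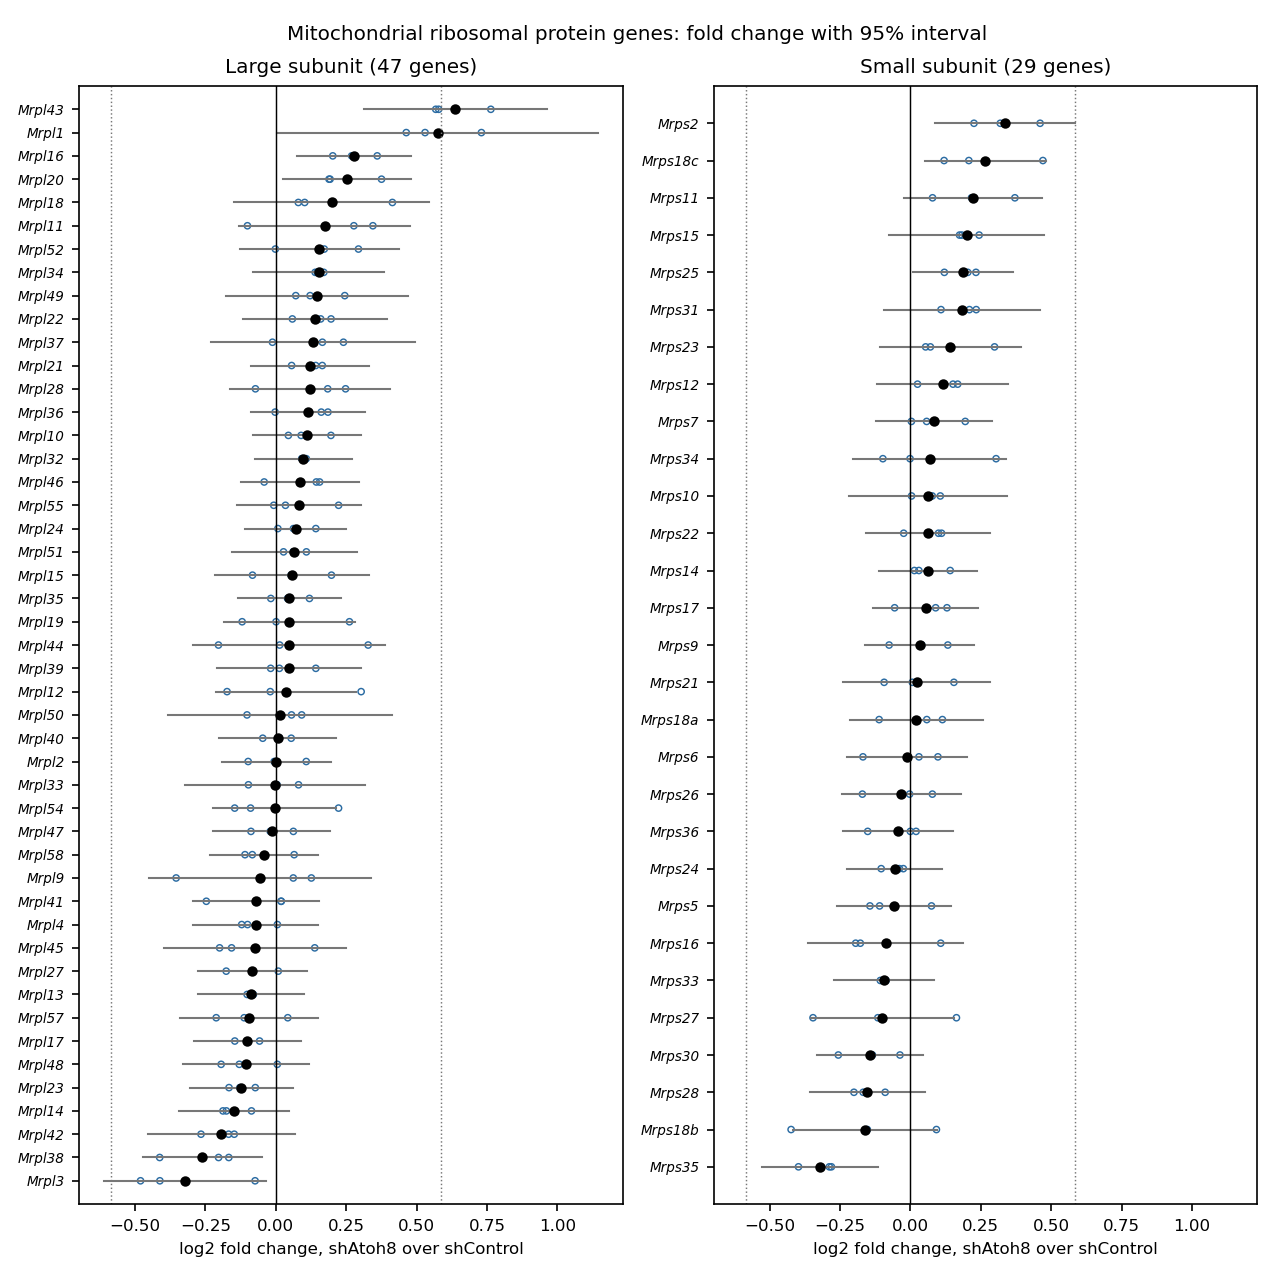
Fold change of each of the 76 genes (horizontal axis, log2 of shAtoh8 over shControl; vertical axis, genes ordered by fold change), with the large subunit on the left and the small subunit on the right. Black points are the fitted values, grey lines their 95% intervals from limma, open circles the differences within replicates 1, 2 and 3, and dotted lines a 1.5-fold change in either direction. Most points lie near 0, and Mrpl43 (0.64) and Mrpl1 (0.57) stand highest.

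The 2 subunits had nearly the same centre. The median log2 fold change was 0.05 over the 47 large subunit genes (29 positive, 18 negative; middle 50% of genes from -0.07 to 0.12) and 0.03 over the 29 small subunit genes (17 positive, 12 negative; -0.06 to 0.12), beside 0.01 over all genes (-0.10 to 0.11). Within replicates 1, 2 and 3 the large subunit median was -0.01, 0.07 and 0.06, and the small subunit median was 0.00, 0.09 and 0.06. Over all genes these medians were -0.01, 0.00 and 0.03. In replicate 1, then, the members did not lie above their controls as a group: 38 of 76 had a positive difference there, against 53 in replicate 2 and 45 in replicate 3. The large subunit median of the fitted values exceeded the small by 0.013, but within replicates 1, 2 and 3 the large median lay below the small (differences of -0.016, -0.027 and -0.0019), so no order of the subunits can be read. Where each array was centred on its own median, the subunit medians were 0.02 and 0.01.

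The intervals bound how far the probe set used for each member can have moved, and they do not cover its other probe sets. The 95% interval of the fold change lay inside 1.5-fold in both directions for 73 of the 76 members (96.1%), against 81.5% of all genes. The intervals are per gene, without adjustment for the number of genes. Mrps5 counts as inside by its brightest set, while dimmer sets of it read 0.48 ± 0.09 and 0.47 ± 0.08 (SE). The exceptions were Mrpl43 (0.31 to 0.96), Mrpl1 (0.0054 to 1.14) and Mrpl3 (-0.61 to -0.03). The median half-width of the interval was 0.22 for the members and 0.25 for all genes. The members were also brighter: ranked by mean signal over all probe sets, their median percentile was 89.5, against 64.2 for all genes. The part of brightness in these shares was not tested. Only Mrpl43 had a fitted change above 1.5-fold (1 of 76, against 804 of 18193 genes), and no member reached 2-fold.

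All 3 shAtoh8 arrays lay above all 3 shControl arrays for 8 members and below them for 9, which is 22.4% of 76, where 24.0% of all genes did so (12.6% higher, 11.4% lower). The large subunit had 4 such genes in each direction, and the small subunit had 4 higher and 5 lower. Without shControl replicate 1 the count over all members rose to 35, where 33.2% of all genes then had groups apart. The direction was the same within all 3 replicates for 36 members, 24 higher and 12 lower, and mixed for 40. That is 47.4% of members with 1 direction, against 45.5% of all genes.

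Mrpl43, a protein of the large subunit that bacteria lack, had the highest fold change of all members. In shControl its only probe set read 10.50, 10.34 and 10.02, and in shAtoh8 11.07, 10.92 and 10.79 (replicates 1, 2 and 3, the order used throughout). Every shAtoh8 array lay above every shControl array. The means were 10.29 ± 0.24 and 10.92 ± 0.14 (SD, n = 3 each), which gives 0.64 ± 0.14 (SE) or 1.55-fold, with a limma adjusted p of 0.0933. It passed under the replicate block (adjusted p = 0.0292). The differences within replicates were 0.57, 0.58 and 0.76. The blocked call was kept without replicate pair 2 (adjusted p = 0.0258) and was lost without pair 1 (0.129) or pair 3 (0.154), in fits in which 0 genes of the whole table passed. Leaving out single arrays gave values from 0.50 to 0.74.

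Mrpl1, which belongs to the stalk near the exit of spent tRNA, was the other member that rose with the block. It read 7.97, 7.62 and 7.09 in shControl and 8.44, 8.15 and 7.82 in shAtoh8. The groups overlapped, since shControl replicate 1 lay above shAtoh8 replicate 3, while each shAtoh8 array lay above its own control by 0.46, 0.53 and 0.73. The difference was 0.57 ± 0.24 (SE). It did not pass limma (adjusted p = 0.356) and passed under the replicate block (0.0366). The blocked call was kept without pair 2 (0.0413) and lost without pair 1 (0.139) or pair 3 (0.186). Its value was 0.34 when the third shControl array was left out (adjusted p = 0.618). The other probe sets of Mrpl1 read smaller differences of 0.20 ± 0.11 and 0.11 ± 0.09 (adjusted p = 0.294 and 0.567 with the block), and the mean of its probe sets gave 0.30 (adjusted p = 0.298).

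**Figure D2:**
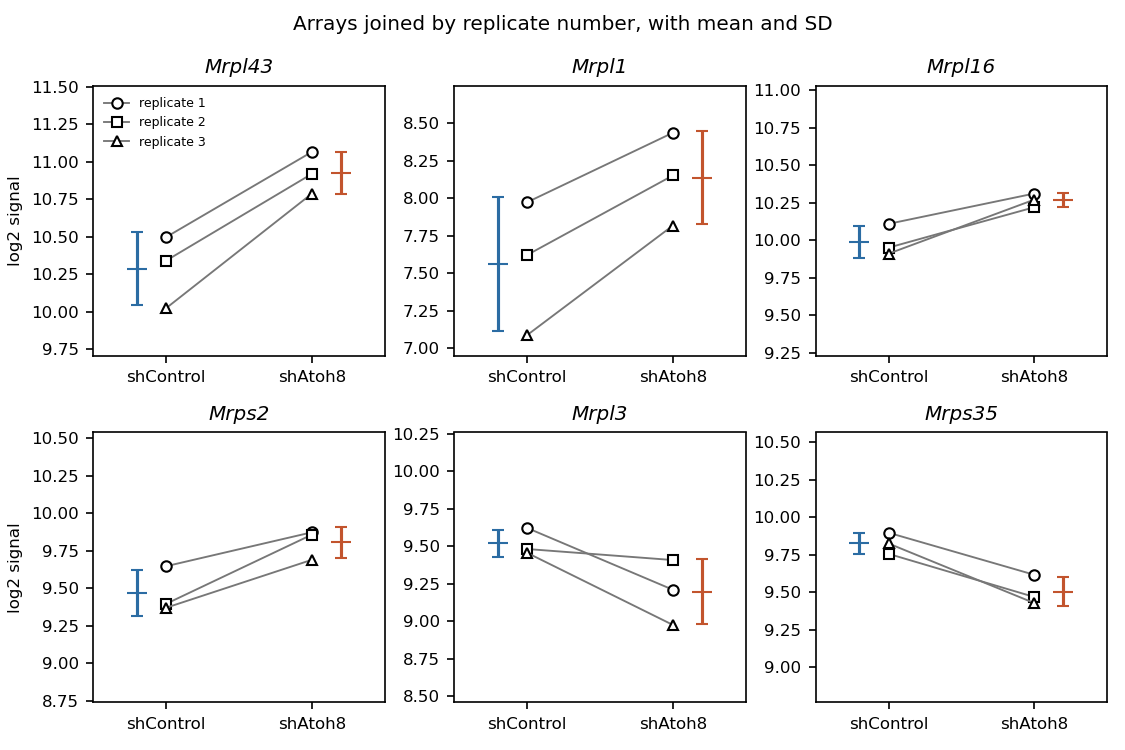
Log2 signal (vertical axis, each panel spanning the same number of log2 units) of 6 members on the 6 arrays, with lines joining the arrays of a replicate number and coloured bars giving mean and SD of each group (n = 3). Mrpl43 and Mrpl1 lay higher in shAtoh8 in every pair, by 0.46 to 0.76, and Mrps35 lay lower in every pair.

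Among the other large subunit genes with positive values, Mrpl16, which lies by the site where incoming tRNA is accommodated, read 10.11, 9.95 and 9.91 in shControl and 10.31, 10.22 and 10.27 in shAtoh8. The groups did not overlap, yet the difference of 0.28 ± 0.09 (SE) did not pass limma (adjusted p = 0.202). Mrpl20, a protein that binds the rRNA of the large subunit, read 9.34, 9.15 and 9.18 against 9.53, 9.34 and 9.55, also without overlap (0.25 ± 0.10, adjusted p = 0.303). Mrpl18, in the central protuberance, and Mrpl11, at the base of the stalk that receives translation factors, read 0.20 and 0.17, and their groups overlapped (adjusted p = 0.660 and 0.663).

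The lowest value of the large subunit was that of Mrpl3, a core protein with a bacterial counterpart. It read 9.62, 9.48 and 9.45 in shControl and 9.21, 9.41 and 8.97 in shAtoh8, with no overlap. The difference of -0.32 ± 0.12 (SE) did not pass limma (adjusted p = 0.300), and it was much smaller in replicate 2 (-0.07) than in replicates 1 and 3 (-0.41 and -0.48). Mrpl38, of the central protuberance, read 9.75, 9.70 and 9.94 against 9.55, 9.53 and 9.53, again apart (-0.26 ± 0.09, adjusted p = 0.250). That value depends on a probe set of a kind that can also bind related transcripts. Without the sets whose names end in _x_at, _s_at or _a_at, Mrpl38 was read by another one, at 0.13 (adjusted p = 0.661).

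Mrpl42 (-0.19), Mrpl14 at the interface of the subunits (-0.15), Mrpl23 by the exit of the peptide tunnel (-0.12) and Mrpl48 (-0.11) completed the lower end, with adjusted p from 0.520 to 0.736. The groups of Mrpl14 and Mrpl23 did not overlap, and those of Mrpl42 and Mrpl48 did. The other 35 large subunit genes lay between -0.10 and 0.15, with adjusted p of 0.600 or more.

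In the small subunit the highest fold change was that of Mrps2, a protein with a bacterial counterpart. Mrps2 read 9.65, 9.40 and 9.37 in shControl and 9.87, 9.86 and 9.69 in shAtoh8. The groups did not overlap, and the pairs differed by 0.23, 0.46 and 0.32. The fitted value was 0.34 ± 0.11 (SE), with a limma adjusted p of 0.208. Mrps18c read 10.02, 9.98 and 9.80 against 10.14, 10.19 and 10.27, without overlap (0.27 ± 0.09, adjusted p = 0.247). Mrps11, of the platform (0.22), Mrps15, which binds the small subunit rRNA (0.20), Mrps25 (0.19) and Mrps31 (0.18) followed, with adjusted p from 0.337 to 0.589, and of these 4 only Mrps25 had groups that did not overlap.

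Mrps35, a protein of the small subunit found in mitochondria and not in bacteria, had its lowest value. It read 9.90, 9.76 and 9.83 in shControl and 9.62, 9.47 and 9.43 in shAtoh8. All shAtoh8 arrays lay below all shControl arrays, with pair differences of -0.28, -0.29 and -0.40. The difference of -0.32 ± 0.09 (SE) did not pass limma (adjusted p = 0.157, the smallest of the small subunit). Mrps18b (-0.16), Mrps28 (-0.15), Mrps30 (-0.14), Mrps27, an RNA-binding protein of the pentatricopeptide type (-0.10), and Mrps33 (-0.09) came next, with adjusted p from 0.527 to 0.792. Of these 5, Mrps28, Mrps30 and Mrps33 had groups that did not overlap. The other 17 small subunit genes lay between -0.09 and 0.14, with adjusted p of 0.666 or more.

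The symbol does not always tell where a protein sits. Mrps18a and Mrps30 are placed in the large subunit in structures of the mitochondrial ribosome, and Mrps36 has been assigned to another mitochondrial enzyme complex. With these 3 moved or left out, the medians were 0.05 for 49 large and 0.06 for 26 small subunit genes, a difference of -0.013. A split into 2 classes, which the choice of genes had not used, followed the protein names of those structures and not descent. One class held proteins named after bacterial ones, and the other held proteins named as mitochondrial. The medians were 0.06 for 29 large subunit genes of the bacterial class and 0.01 for 20 of the mitochondrial class. In the small subunit these were 0.06 for 16 and 0.02 for 10. Positive values made up 19 of 29 and 11 of 20 in the large subunit and 11 of 16 and 5 of 10 in the small subunit. No member of either origin passed limma (0; 4 and 2 in the large and 2 and 2 in the small subunit at an unadjusted p under 0.05), and the 2 genes that rose with the block came 1 from each origin.

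The mean signal of each subunit was highest in replicate 1 under both hairpins. On the replicate 1 arrays the mean signal of the 47 large subunit genes was 9.83 in shControl and 9.82 in shAtoh8, whereas on the other 4 arrays it lay between 9.69 and 9.77. For the small subunit the corresponding means were 9.69 and 9.66, against 9.55 to 9.63. When the 2 arrays of a replicate number were averaged, 45 of 76 members were highest in replicate 1 (59.2%), where 33.5% of all genes were. The range over the 3 replicate averages exceeded the difference between groups for 54 of 76 members (71.1%), beside 67.1% of all genes. By subunit this was 37 of 47 large (78.7%) and 17 of 29 small subunit genes (58.6%). A range over 3 averages of 2 arrays is set here against a difference of 2 means of 3 arrays, so a majority alone shows no replicate effect. What set replicate 1 apart was not tested.

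**Figure D3:**
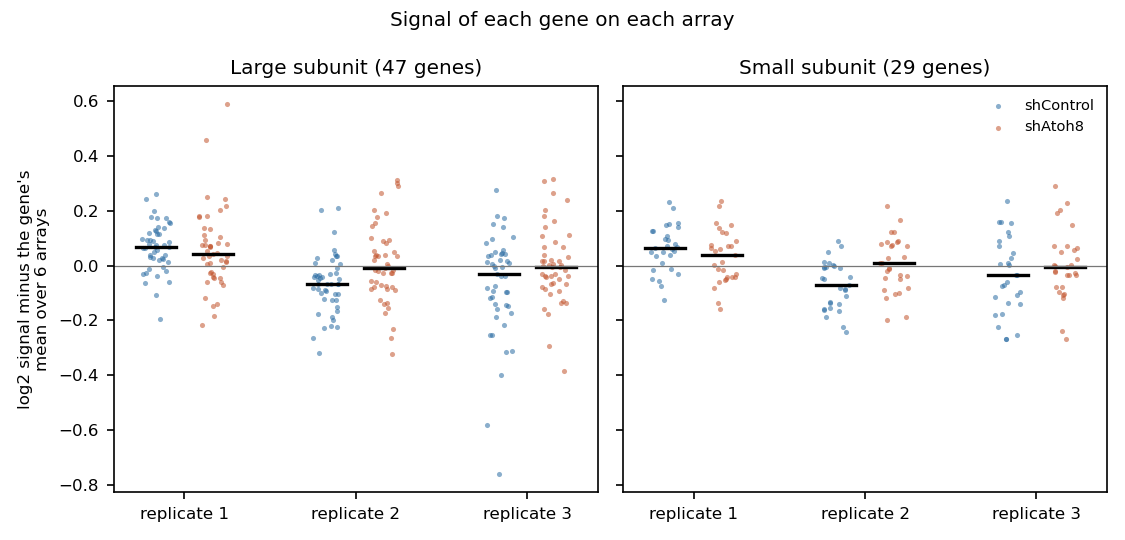
Each point is 1 gene on 1 array, as its log2 signal minus that gene's mean over the 6 arrays (vertical axis), by replicate number (horizontal axis) and group (colour), with black bars at the medians. The medians of both groups were highest in replicate 1 in the large and the small subunit.

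For 42 of the 76 members several probe sets were present, up to 8 for Mrpl15, and they allow a look at each gene from other probes. All sets of a gene had the same sign for 21 genes, and at least 1 other set had the opposite sign for 21 (15 large, 6 small). The gap between the lowest and the highest set of a gene had a median of 0.15. Of the 156 probe sets 0 passed limma (19 at an unadjusted p under 0.05), where 0.802% of all probe sets passed. With the replicate block 4 passed (2.56%, against 3.42% of all). Those were the sets of Mrpl43 and Mrpl1 and 2 sets of Mrps5 that were not used to represent it.

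Mrps5, the small subunit counterpart of a bacterial protein by the entry of the message, thus gave unlike readings. The brightest set read 8.73, 8.74 and 8.85 in shControl and 8.81, 8.63 and 8.71 in shAtoh8 (-0.06 ± 0.09 SE, adjusted p = 0.858). A dimmer set read 7.10, 7.03 and 6.87 against 7.53, 7.43 and 7.48 (0.48 ± 0.09, adjusted p = 0.0671, and 0.0459 with the block), and a still dimmer one read 6.06, 5.91 and 5.90 against 6.46, 6.42 and 6.40 (0.47 ± 0.08, 0.0575 and 0.0415). Neither dimmer set had overlapping groups. These sets were singled out after their values were seen, and which part of the transcript each reads was not analysed here. The gap was wider for Mrpl15 (0.59, from -0.09 to 0.50) and Mrpl3 (0.55, from -0.38 to 0.17). For Mrpl3 the 2 brightest sets were alike, at -0.32 and -0.38.

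**Figure D4:**
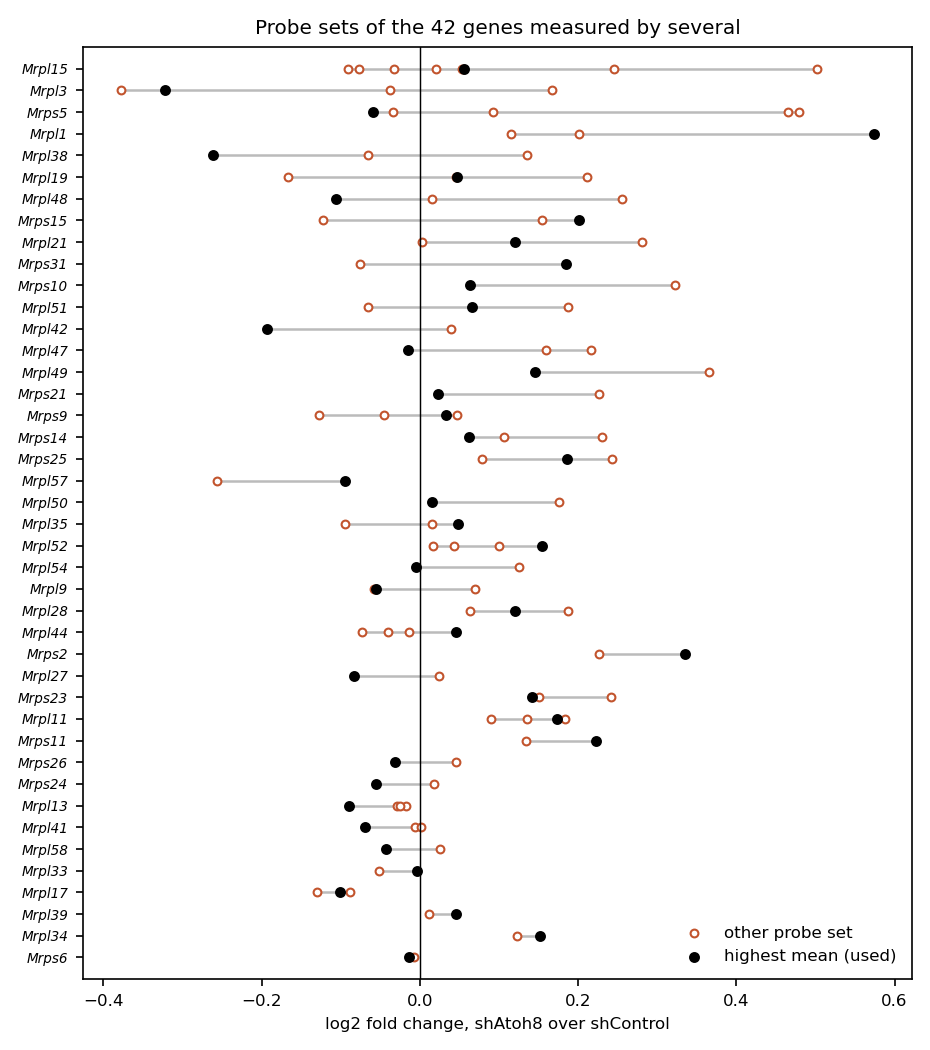
Log2 fold change (horizontal axis) of every probe set of the 42 genes with several, genes ordered by the gap between their sets. Black points are the sets used and open circles the others, and those of Mrps5 run from -0.06 to 0.48.

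Start regions of 67 of the 76 members were in the RefSeq promoter table (300 bases each, 250 before to 50 after the start; a gene counted if any of its windows held the motif). The ETS motif CCGGAAG was present in 25 of 67 (37.3%), against 9.93% of all 27025 genes in the table and 15.0% of the 14452 on the array. The YY1 motif was present in 13 (19.4%, against 7.28% and 7.54%), and the NRF1 motif in 8 (11.9%, against 4.41% and 6.30%), of which 7 were large subunit genes. The E-box CACGTG stood in 5 (7.46%, against 8.09% and 10.2%) and CAGCTG in 11 (16.4%, against 18.3% and 18.8%). The median log2 fold change of members with and without the motif was 0.02 and 0.06 for the ETS motif, 0.10 and 0.04 for the YY1 motif, 0.02 and 0.05 for the NRF1 motif, 0.13 and 0.05 for the first E-box, and -0.04 and 0.06 for the second. The ETS motif, the commonest of the 5 here, was present in the windows of both the highest (Mrpl43) and the lowest (Mrpl3) member of the large subunit. A match is a run of letters and no measure of binding.

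Many members share a start region with another gene. For 25 of the 67 (37.3%) a gene on the opposite strand started within 1000 bases and ran the other way, where 12.3% of all genes in the table and 16.3% of those on the array had such a head-to-head neighbour. The pair Mrpl46 and Mrps11, whose starts lie 42 bases apart, consists of members. The other 23 neighbours were other genes, all on the array. Of the 25 neighbours 2 passed limma and 4 passed with the block (16.0%, where 4.67% of all genes passed), while 1 of the 25 members did. The difference between a member and its neighbour was not tested.

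Mrpl43 and Twnk, the helicase that unwinds mitochondrial DNA, start 116 bases apart. Twnk read 8.68, 8.56 and 8.61 in shControl and 8.65, 8.60 and 8.39 in shAtoh8, with overlapping groups (-0.07 ± 0.10 SE, adjusted p = 0.831), beside 0.64 ± 0.14 for Mrpl43. Mrpl18 and Tcp1, a subunit of the cytosolic chaperonin, start 238 bases apart. Tcp1 fell, from 12.48, 12.38 and 12.45 to 11.64, 11.81 and 11.44 (-0.81 ± 0.11, adjusted p = 0.0351), whereas Mrpl18 read 0.20 ± 0.15. Mrps18c and Helq, a DNA helicase of repair, start 159 bases apart. Helq rose, from 6.26, 6.08 and 6.13 to 6.68, 6.64 and 6.70 (0.52 ± 0.08, adjusted p = 0.0499), and Mrps18c read 0.27 ± 0.09. Ncapd2, a condensin subunit across from Mrpl51 (614 bases), and Ska3, a spindle protein across from Mrpl57 (76 bases), fell with the block (-1.18 ± 0.24 and -0.52 ± 0.11, adjusted p = 0.0376 and 0.0451, and 0.0834 and 0.0828 without it), beside 0.07 ± 0.09 for Mrpl51 and -0.09 ± 0.10 for Mrpl57. Ska3 was dim: it read 4.58, 4.85 and 4.77 against 4.21, 4.35 and 4.09, below the array medians of 5.49 to 5.56.

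**Figure D5:**
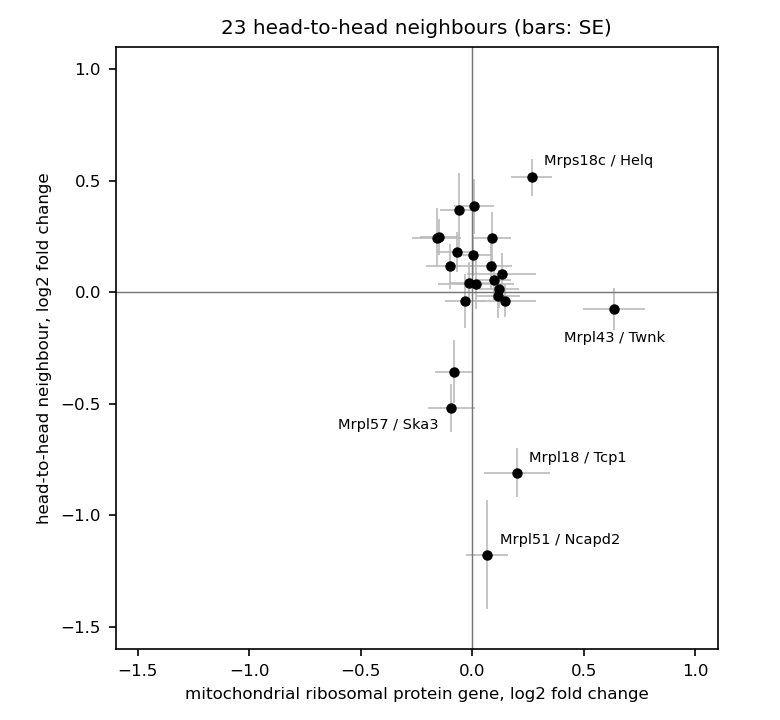
Log2 fold change of a member (horizontal axis) against that of its head-to-head neighbour (vertical axis) for the 23 neighbours that are not members, with bars of 1 SE. The points labelled for Tcp1 (-0.81) and Ncapd2 (-1.18) lie far down, where their members Mrpl18 and Mrpl51 are at 0.20 and 0.07, and the point for Mrpl43 lies to the right at a neighbour value of -0.07.

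The genes that build and serve the mitochondrial ribosome, were read from 6 lists. Of 126 listed names 113 were measured, and 0 passed limma (22 at an unadjusted p under 0.05, 16 higher and 6 lower; 19.5%, against 17.5% of all genes). Over all genes 1.15% passed limma. With the replicate block 1 of the 113 passed, Myc (lower), which is 0.885%, against 4.67% of all genes (2.75% lower). At an unadjusted p under 0.05 in limma, 8.72% of all genes were higher and 8.82% lower, to set beside the counts of each list below. The median fold change of the 113 was -0.01. Of the names not measured, Mrp63 and Ict1 are older symbols of Mrpl57 and Mrpl58.

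Ribosomal proteins under other names (4 measured of 7 listed; median -0.03) were led by Ptcd3, of the small subunit, which read 0.33 ± 0.11 SE (adjusted p = 0.229; groups apart). Chchd1, also of the small subunit, read -0.24 and Dap3, its GTP-binding protein, -0.04. Assembly and rRNA modification factors (30 of 33; median -0.01; 2 higher and 2 lower at an unadjusted p under 0.05) had their smallest p at Fastkd2, an RNA-binding protein of mitochondrial RNA granules (0.49 ± 0.10, adjusted p = 0.0813), followed by Mettl17 (0.31 ± 0.09) and the inner membrane protease Afg3l2 (-0.27 ± 0.09). Translation factors (15 of 19; median 0.03; 2 higher and 1 lower) were led by Mtif2, the initiation factor (0.36 ± 0.09, adjusted p = 0.114), with the recycling factor Gfm2 at 0.30 ± 0.07 and the elongation factor Tsfm at -0.22 ± 0.09.

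Aminoacyl-tRNA synthetases and tRNA factors (28 of 29; 18 positive; median 0.06; 6 higher and 1 lower at an unadjusted p under 0.05) had groups apart for 12 genes (42.9%, against 24.0% of all genes), 8 higher and 4 lower. That share was the highest of the 6 lists, and in the others it lay between 23.1% and 30.4%. The smallest p-values of the synthetase list were those of Fars2 (0.29 ± 0.08 SE, adjusted p = 0.143), Lars2 (0.39 ± 0.11, 0.153) and Cars2 (0.49 ± 0.15, 0.189). These enzymes charge mitochondrial tRNAs with phenylalanine, leucine and cysteine. Genes of mitochondrial transcription and mRNA stability (23 of 25; median -0.06; 4 higher and 1 lower) had their smallest p at Polg, the mitochondrial DNA polymerase. Polg read -0.63 ± 0.12 (adjusted p = 0.0675, and 0.0554 with the block), and Lrpprc, which stabilises mitochondrial mRNAs, read 0.37 ± 0.10 (0.149), followed by Fastkd5 (0.27 ± 0.08, 0.206).

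Regulators of mitochondrial biogenesis (13 of 13; median -0.07; 1 higher and 1 lower at an unadjusted p under 0.05) included the gene that fell with the block. Myc, a growth factor-responsive transcription factor that binds E-boxes, read -1.01 ± 0.30 SE. Its adjusted p was 0.181, and 0.0384 under the block, with pair differences of -0.63, -0.90 and -1.49. The coactivators Ppargc1a and Pprc1 read 0.27 ± 0.11 and -0.30 ± 0.13 (adjusted p = 0.317 and 0.376). The 49 genes named for cytosolic ribosomal proteins and close relatives, none of which passed limma (0; 2 at an unadjusted p under 0.05), had a median of -0.02, with 36 negative. The 2 at an unadjusted p under 0.05 are 4.08% of the 49, against 17.5% of all genes. Rps28 read -0.33 ± 0.09 (0.148), Rpl7l1 0.26 ± 0.11 (0.340) and Rpl22 -0.20 ± 0.10 (0.469).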

How the data were processed

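The deposited table gives a log2 signal for each probe set. The authors made it with RMA in the affy package, per the submitters' processing notes, with versions not given in the sources used here. RMA corrects background, quantile-normalises the arrays and summarises probes, so a shift of most genes in 1 direction would have been removed. The table held 45101 probe sets. The 64 controls were left out, and 45037 were tested without a filter.

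Gene names came from the platform annotation, which can be old, and symbols were used as it gives them. Promoter windows and neighbouring genes came from RefSeq tables (GRCm38.p6), matched by symbol. The groups were compared in limma (3.58.1, under R 4.3.3) through lmFit and eBayes (4 residual and 3.30 prior degrees of freedom), two-sided, with Benjamini-Hochberg adjustment over all probe sets and a threshold of 0.05. Errors are moderated standard errors. The number of arrays limits precision. The fit without the block was tested on simulated data with independent noise. The fit with the replicate block, which has 2 residual degrees of freedom, was not simulated. Lists are described by counts and medians, with no test of a list.

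Same-numbered arrays deviated from their group means together over all probe sets (correlations 0.407, 0.187 and 0.433, against -0.351 to 0.0292 between different numbers), so the numbers were taken to pair the arrays.

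Named were, in each subunit, the 6 highest and 6 lowest genes and those past the threshold with or without the replicate block; the 3 genes with the widest gap between probe sets of opposite sign; and, in each list, genes past the threshold and the 3 with the smallest p. The head-to-head neighbours were looked up after the values had been seen, and those printed are the ones past the threshold and Twnk. Members and lists were chosen with earlier results of these data known. Alternatives covered the replicate block, normalization, centring, brightness, the variance model, array weights, the choice of probe sets, each array and each pair left out, subunit assignment and the threshold.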

Additional observations from a re-analysis of the deposited data

How the results depend on the processing

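Over the 17 other settings run for them, the 24 named members gave 405 values. Of these 398 kept direction and side of the threshold, and 4 passed it (Mrpl43 and Mrpl1, with the replicate block and with the block without pair 2). The remaining 3 changed sign: Mrpl38 (0.13 without probe sets whose names end in _x_at, _s_at or _a_at), Mrpl48 (0.055 as the mean of probe sets) and Mrps27 (0.024 with the block without pair 1). Mrpl20, Mrps18b and Mrps33 had no value without the sets of those name endings. Part of the 398 was fixed in advance. The replicate block and the other variance model leave the fold change as it is, as do other choices of probe sets for genes with a single set. With the block without pair 1 or 3 no gene of the whole table passed, so no member could change side there. The count of large subunit genes called, 0, was 2 with the replicate block, 2 with the block without pair 2 and 1 (Mrpl43) at a threshold of 0.1, and that of small subunit genes stayed 0 in each setting. For the pathway lists the count was 1 with the replicate block (0.885% of 113 genes, against 4.67% of all genes).

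Over all genes the count of 210 became 849 with the replicate block, 324 with brighter probe sets alone, 339 with array weights, 459 as means of probe sets, 691 at a threshold of 0.1, 0 to 117 with 1 array left out, and 0, 966 and 0 with the block without pairs 1, 2 and 3. The difference of the subunit medians was -0.0084 without probe sets whose names end in _x_at, _s_at or _a_at, and -0.013 with subunits by structure. It was 0.027 with the block without pair 3 and -0.0030 to 0.043 with 1 array left out. Groups did not overlap for 20 to 35 members with 1 array left out and for 38, 29 and 27 without pairs 1, 2 and 3 (42.1%, 45.0% and 44.6% of all genes). The 35 is the count without shControl replicate 1, given above beside the share of all genes, which rose as well. For the other single arrays that share is not given here, so their counts are not read. The cause of these changes was not tested.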

Other observations

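The 4 probe sets that name a member together with another gene were left out of the counts. The bright set shared by Mrpl30 and the gene model Gm6238 read 11.10, 11.16 and 11.08 in shControl and 11.13, 11.11 and 11.00 in shAtoh8 (-0.03 ± 0.08 SE, limma adjusted p = 0.927). Its dim set read -0.24 ± 0.11 (0.432). The set shared by Mrpl53 and Ccdc142 read -0.10 ± 0.09 (0.701), and the set shared by Mrps34 and Nme3 read 0.03 ± 0.11 (0.950).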
